A study of Mus musculus with 20 samples.

Results

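Adrenergic receptors are the proteins through which brain cells sense noradrenaline and adrenaline, and their RNA was measured in the hippocampus of 20 young adult C57BL/6 mice. Their genes were taken by symbol from the deposited gene table: Adra1a, Adra1b, Adra1d, Adra2a, Adra2b, Adra2c and Adrb1, which are 7 of the 48709 genes counted. All 7 passed the filter on low counts that left 19797 genes for testing. Other beta receptor genes were not analysed here. The samples form 4 groups, with 5 males and 5 females of each exposure. The exposures were nPM and filtered air (control). nPM is nanosized particulate matter of urban air, which the pregnant dams of the nPM groups inhaled on 3 days of each week, 5 h at a time, from gestational day 2 until birth. The dose stands as 300 mg/m3 in the sample labels, whereas the methods of the study give the unit as μg/m3. The control dams were kept in parallel in filtered air, and exposure ended at birth in both arms. The ages of the offspring were 17.71 to 18.29 weeks in females and 18.57 to 19.14 weeks in males, so that sex and age cannot be told apart. The methods of the study describe EdU injections of male mice before tissue collection, to count new neurons. They also state that all animals were injected. If only males received EdU, sex and injection cannot be told apart either. The adults came from a few litters per exposure group, and the labels tie no sample to a litter, so p-values take no account of littermates. The hippocampus is bulk tissue, and in bulk RNA fewer cells of a type and less RNA per cell cannot be told apart.

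Noradrenaline reaches the hippocampus through axons of the locus coeruleus, a small nucleus of the brainstem, and it acts there on attention, arousal and memory. The alpha-1 receptors (Adra1a, Adra1b, Adra1d) couple to Gq proteins and through phospholipase C raise calcium and activate protein kinase C. The alpha-2 receptors (Adra2a, Adra2b, Adra2c) couple to Gi and Go proteins, lower cyclic AMP, and sit in part on noradrenergic terminals, where they limit release. The beta-1 receptor (Adrb1) couples to Gs and raises cyclic AMP, which activates protein kinase A.

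The libraries held 19092067 to 38663408 counts on genes, with a median of 29468930. A gene at 0 could still have had 3 counts, which is 0.0784 to 0.164 CPM (counts per 1000000 counts), by counting error only. All 10 markers of hippocampal pyramidal and granule neurons were detected in every group, and their summed level was 996 to 2009 CPM, so that the markers of the labelled tissue were present. Genes listed as markers of other tissue were also counted: neocortical markers summed to 239 to 446 CPM and choroid plexus markers to 41.3 to 8723 CPM. How far these sums come from tissue outside the hippocampus was not tested. Of the libraries, nPM females 1 stood apart for striatal markers, with 487 CPM against 141 to 209 CPM in the others. Library nPM females 4 stood apart for GC tilt, the mean difference on the log2 scale between the fifth of genes richest and the fifth poorest in G and C. Its tilt was -0.75, against -0.30 to 0.39 in the other 19 libraries. This bears on Adra1d and Adra2c, whose transcripts hold 65.4% and 65.5% G and C, and 99.6% of the genes with a known sequence hold less than either.

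The genes lie on 5 chromosomes of the mm10 (GRCm38) build. Adra1a (ENSMUSG00000045875.12) spans bases 66635251 to 66733462 of chromosome 14, Adra1b (ENSMUSG00000050541.14) bases 43774606 to 43901210 of chromosome 11, and Adra1d (ENSMUSG00000027335.9) bases 131545850 to 131562283 of chromosome 2. Adra2a (ENSMUSG00000033717.5) lies at 54045182 to 54048982 and Adrb1 (ENSMUSG00000035283.4) at 56722372 to 56724862, both on chromosome 19. Adra2b (ENSMUSG00000058620.5) lies at 127363208 to 127367221 on chromosome 2, and Adra2c (ENSMUSG00000045318.6) at 35278319 to 35281763 on chromosome 5. Adra2b, Adra2c and Adrb1 consist of 1 exon each. The gene of Adra1d overlaps the antisense gene Gm14285 on the opposite strand, with which it shared 5.35% of its 50-base words, and without a stated strand setting the reads of the pair cannot be told apart there. Each of the other 6 genes shared at most 0.39% of its words with any other gene, and the 3 alpha-2 genes shared none.

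Promoter sequences were found for 5 of the 7 genes among 32851 promoters of the RefSeq annotation of GRCm38.p6, each running from 250 bases before to 50 bases after a transcription start. Those of Adra2c, Adrb1 and Adra1b are shown, since Adra2c came nearest to a difference with exposure and Adra1b and Adrb1 varied most closely with tissue markers. Each is written from 5′ to 3′ on the strand of the gene. Capitals mark matches on either strand to CCAAT (the CCAAT box, in 37.4% of all promoters), GGGCGG (the GC box, in 35.7%) and CACGTG (an E box, in 7.15%). TATAAA, present in 13.6% of promoters, and TGACGTCA, the cyclic AMP response element, present in 1.79%, were also searched and had no match in these 4 sequences.
Adra2c, chr5:35278316-35278615, plus strand: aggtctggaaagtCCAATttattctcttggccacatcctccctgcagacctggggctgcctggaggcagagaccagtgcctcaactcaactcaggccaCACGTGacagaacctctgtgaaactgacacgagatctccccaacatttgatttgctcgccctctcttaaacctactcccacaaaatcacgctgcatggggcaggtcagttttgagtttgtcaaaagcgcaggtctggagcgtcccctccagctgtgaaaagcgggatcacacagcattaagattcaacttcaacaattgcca
Adrb1, chr19:56721867-56722166, plus strand: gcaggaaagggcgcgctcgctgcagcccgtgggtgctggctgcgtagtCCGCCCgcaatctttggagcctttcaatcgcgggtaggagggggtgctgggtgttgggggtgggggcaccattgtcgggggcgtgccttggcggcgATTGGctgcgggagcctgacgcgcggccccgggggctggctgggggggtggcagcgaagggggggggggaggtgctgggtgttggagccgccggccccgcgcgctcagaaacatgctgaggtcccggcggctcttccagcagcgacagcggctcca
Adra1b, first start, chr11:43836440-43836739, minus strand: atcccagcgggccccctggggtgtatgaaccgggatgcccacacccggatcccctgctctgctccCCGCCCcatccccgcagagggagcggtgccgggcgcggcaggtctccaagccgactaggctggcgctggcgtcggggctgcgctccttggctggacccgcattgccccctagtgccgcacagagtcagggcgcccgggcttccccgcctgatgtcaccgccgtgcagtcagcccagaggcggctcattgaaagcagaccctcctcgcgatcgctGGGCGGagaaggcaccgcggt
Adra1b, second start, chr11:43901188-43901487, minus strand: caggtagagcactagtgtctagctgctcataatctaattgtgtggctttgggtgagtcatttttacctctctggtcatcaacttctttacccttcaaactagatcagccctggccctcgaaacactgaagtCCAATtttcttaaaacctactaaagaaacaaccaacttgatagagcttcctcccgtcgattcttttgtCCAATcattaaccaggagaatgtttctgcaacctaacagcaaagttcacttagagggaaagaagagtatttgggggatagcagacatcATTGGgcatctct
The 2 starts of Adra1b, numbered by coordinate, differ in composition. The one at 43836440 to 43836739 holds 71.3% G and C with 2 GC boxes, and the one farther upstream holds 42.3% with 3 CCAAT boxes and no GC box. The promoter of Adrb1 holds 72.3% G and C, with 1 GC box and 1 CCAAT box. That of Adra2c holds 51.3%, with 1 CCAAT box and 1 E box. Almost all of the Adra2c window lies inside the gene as counted, which begins at base 35278319, and so do both matches. A match is a description of letters in this window and was not tested as a binding site.

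Levels were compared between genes as RPKM, counts per 1000 bases of gene length and per 1000000 counts of the library. The library size here was the counts on tested genes, scaled by a normalization factor (TMM). Adra1d had the highest mean level, 5.71 RPKM ± 1.63 (SD, n = 20), and Adra2b the lowest, 0.122 ± 0.1005. Between them came Adra2c with 2.73 ± 0.638, Adrb1 with 2.33 ± 0.508, Adra1a with 1.69 ± 0.304, Adra2a with 1.29 ± 0.381 and Adra1b with 0.514 ± 0.204. Adra1d stood above the others in 19 of 20 samples, nPM males 1 being the exception with Adra2c on top, and Adra2b was lowest in 20 of 20. In the range of all tested genes Adra1d was at the 62.3rd percentile and Adra2b at the 2.56th. By class, the alpha-1 receptors made up 54.6% ± 6.26 of the summed RPKM of the 7 genes, the alpha-2 receptors 29.1% ± 5.52 and the beta-1 receptor 16.3% ± 3.76 (SD, n = 20).

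Neighbours in this order were compared within samples by a two-sided permutation test that flips the sign of each difference (100000 draws, adjusted over 6 pairs). The closest pair was Adra2c and Adrb1, whose levels differed 1.17-fold and in this direction in 15 of 20 samples (adjusted p = 0.0361). Adra1a exceeded Adra2a 1.34-fold in 17 of 20 samples (adjusted p = 0.000192). The other 4 steps, from Adra1d to Adra2c (2.05-fold), Adrb1 to Adra1a (1.37-fold), Adra2a to Adra1b (2.62-fold) and Adra1b to Adra2b (5.48-fold), held in 19 or 20 of 20 samples with an adjusted p of 3e-05. The place of Adra1a depends on its length. The deposited length of 8144 bases counts all of its exons, and over its longest coding transcript of 4282 bases its mean level would be 3.22 RPKM, above Adra2c.

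**Figure D1:**
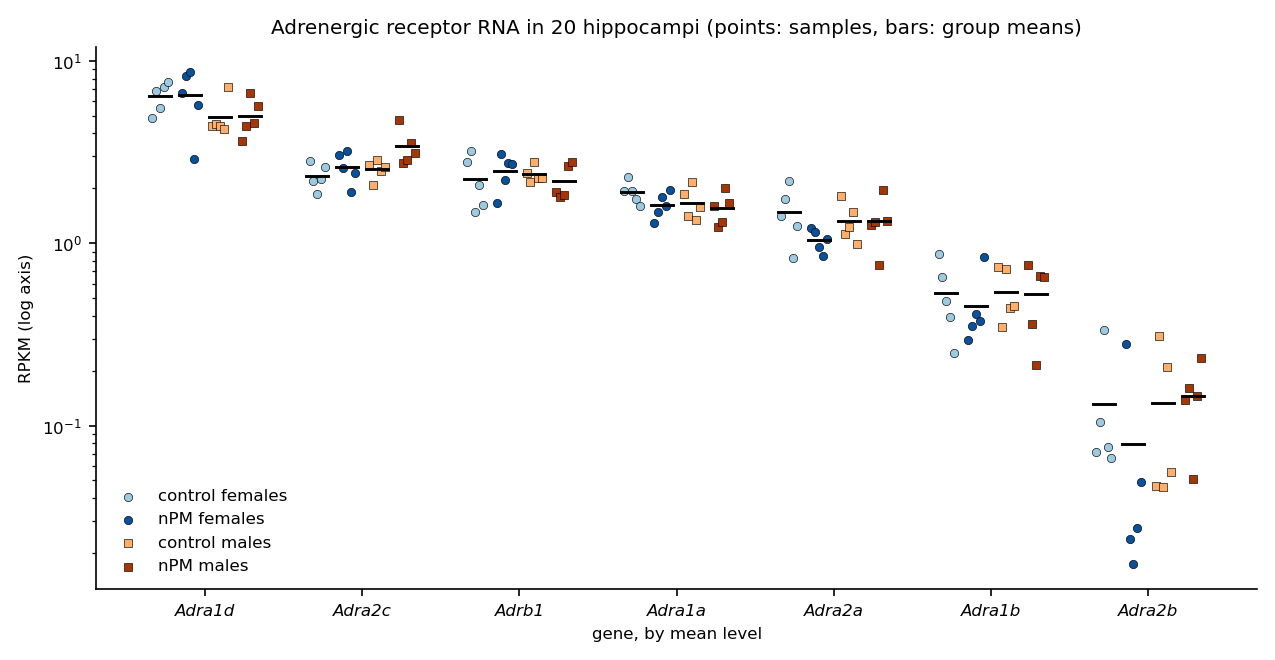
RPKM of the 7 adrenergic receptor genes (log axis) in each of 20 hippocampi, with genes ordered by mean level, symbols for the 4 groups and bars for group means. Adra1d lies between 2.91 and 8.74 RPKM, Adra2b spreads from 0.0173 to 0.334, and 4 of 5 nPM males lie above every control male for Adra2c.

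The spread between samples of a group also differed among the receptors. The within-group SD on the log2 scale was 1.15 for Adra2b and 0.63 for Adra1b, against a median of 0.26 over all tested genes. It was 0.42 for Adra1d, 0.41 for Adra2a, 0.34 for Adrb1, 0.26 for Adra2c and 0.25 for Adra1a. For Adra2b the counts were 2 to 43 per library.

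The main comparison was of nPM with control animals, by limma-voom across all genes with the threshold of p under 0.005 that the study used. None of the 7 receptor genes passed it: the count was 0 of 7 in both sexes together (background 0.141% of tested genes), 0 of 7 in males (0.207%), 0 of 7 in females (0.0859%) and 0 of 7 for the interaction of sex and exposure (0.217%). edgeR and DESeq2 also called 0 of 7 in each. In limma-voom with every sample, no receptor had an adjusted p below 0.963 in these 4 comparisons. At an unadjusted p under 0.05, limma-voom gave 1 of 7 in both sexes (background 2.1%), 1 of 7 in males (4.28%), 0 of 7 in females (2%) and 0 of 7 for the interaction (3.79%). The receptor was Adra2c in both cases, as it was in edgeR and DESeq2, and DESeq2 added Adra2a in females. The median log2 difference of the 7 receptors was -0.13 in both sexes (1 higher and 6 lower), beside -0.0059 over all tested genes, of which 47.0% were higher. Among the lower receptors, Adrb1 (-0.00013) and Adra1d (-0.0088) turned sign in several other settings. The comparisons share their samples, so the counts above are not independent. No gene of the 19797 passed an adjusted p under 0.05 in these 4 comparisons.

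Adra2c, an alpha-2 receptor that also acts as a brake on release from noradrenergic terminals, had its highest levels in nPM males. Its level was 4.73, 2.74, 2.87, 3.55 and 3.12 RPKM in nPM males, against 2.70, 2.09, 2.85, 2.48 and 2.63 RPKM in control males. In nPM females it was 3.03, 2.59, 3.19, 1.91 and 2.44 RPKM, against 2.82, 2.2, 1.87, 2.24 and 2.62 RPKM in control females. The female groups overlapped widely, whereas 4 of 5 nPM males lay above every control male, and nPM males 1, with 615 counts, was highest of all.

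In both sexes together the difference in Adra2c was 0.31 on the log2 scale (SE 0.11), a 1.24-fold level with a 95% interval from 1.06 to 1.46 (limma-voom p = 0.0108, n = 10 per group, the 63rd smallest of 19797). In males it was 0.41 (SE 0.15), a 1.33-fold level with an interval from 1.05 to 1.67 (limma-voom p = 0.0216, adjusted p = 0.963, two-sided exact permutation p = 0.0159), where 5 against 5 samples allow no p below 0.00794. In females the difference was 0.19 (SE 0.16, exact permutation p = 0.349), and with a sample left out 0.11 (without control females 3) to 0.28. The interaction, the difference of the effect in males from that in females, was 0.21 (SE 0.23, limma-voom p = 0.359, n = 20), so a difference between the sexes was not shown. Without nPM males 1 the interaction was 0.081. Without the library nPM females 4 the difference in both sexes was 0.35 and passed the threshold (limma-voom p = 0.00325, n = 19, adjusted p = 0.9999), as it did at 0.36 when control males 1 was left out too (p = 0.00435, n = 18). With the GC tilt of each library as a covariate it was 0.32 (p = 0.00687, n = 20). Without nPM males 1 it was 0.24 in both sexes (p = 0.0235, n = 19) and 0.27 in males. The mean GC tilt was 0.057 in nPM males and 0.059 in control males, and -0.058 in both female groups, but its spread differed. The tilt ran from 0.034 to 0.075 in nPM males and from -0.25 to 0.39 in control males. In nPM females it ran from -0.75 to 0.21 and in control females from -0.30 to 0.035. The markers of microglia were higher with nPM for 10 of 10 genes in both sexes together (median log2 difference 0.081, 0 past p under 0.005). In males 7 were higher and 3 lower (median 0.031), and in females 10 of 10 were higher (median 0.16). Their summed level was 340 to 379 CPM in nPM males, 318 to 382 in control males, 241 to 380 in nPM females and 257 to 309 in control females. Other lists also moved in males, with 0 genes past p under 0.005. Oligodendrocyte markers were higher for 10 of 10 genes (median 0.20), and neocortical and meningeal fibroblast markers lower for 10 of 10 each (median -0.29 and -0.31). The part of these lists in the difference in Adra2c was not tested.

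**Figure D2:**
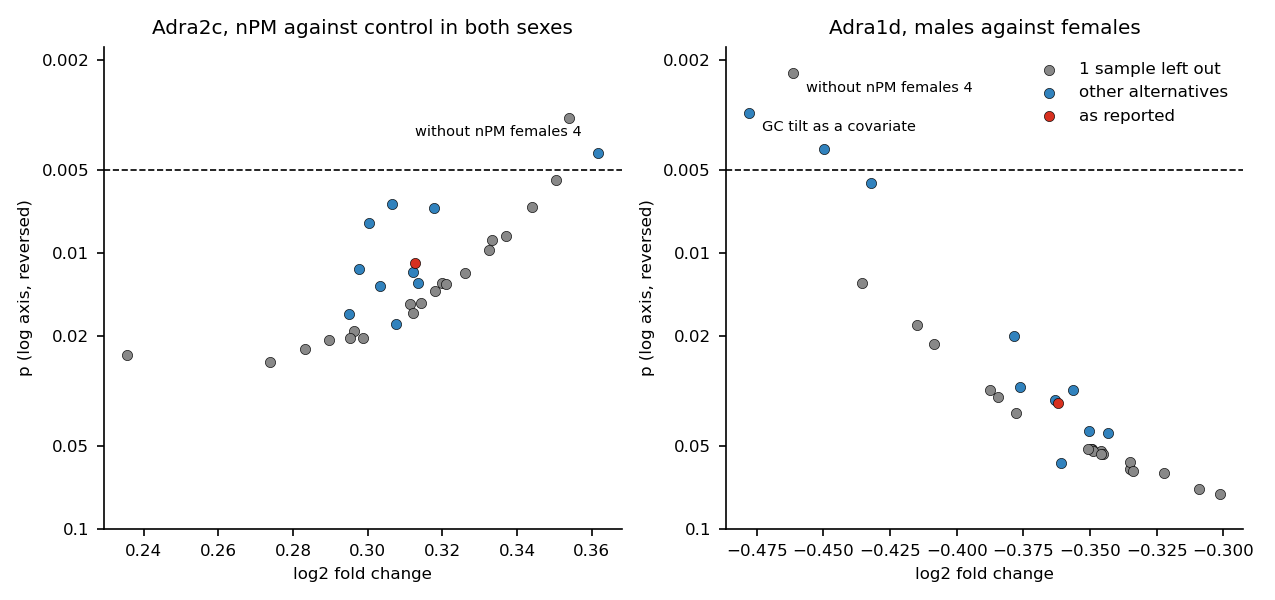
p (log axis, smaller values upward) against log2 fold change of Adra2c with exposure in both sexes (left) and of Adra1d between males and females (right), for the reported fit, each alternative and each sample left out. The dashed line marks the threshold of 0.005, which both genes pass without nPM females 4.

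Adra2a, the other main alpha-2 receptor of terminals and cell bodies, was lower on average in nPM females, without passing the test. Its level was 1.41, 1.74, 2.18, 0.834 and 1.24 RPKM in control females, against 1.22, 1.15, 0.959, 0.850 and 1.05 RPKM in nPM females. The highest nPM female lay below 4 of the 5 control females, and control females 4 lay below them all. The log2 difference was -0.41 (SE 0.25, exact permutation p = 0.127), a 0.751-fold level with a 95% interval from 0.518 to 1.09. Without control females 4 it was -0.63, past an unadjusted p of 0.05 (limma-voom adjusted p = 0.9998), and without control females 3 it was -0.24. In males Adra2a was at 1.32 ± 0.421 RPKM with nPM and 1.33 ± 0.328 in controls (SD, n = 5), a log2 difference of -0.028 (SE 0.24).

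Adra2b, the least abundant receptor, is named in a diagram of the study's gene lists, under a co-expression module that the study tied to exposure on these same samples, so its values here are no independent evidence. Its counts were 34, 2, 2, 2 and 6 in nPM females, against 9, 11, 43, 11 and 6 in control females. They were 21, 20, 7, 21 and 31 in nPM males, against 5, 35, 5, 32 and 8 in control males. Of the nPM females, 3 were at 2 counts, at or under the limit of 3 that a count of 0 allows, while nPM females 1, the library high in striatal markers, had 34. The log2 difference was -1.07 in females (SE 0.68, exact permutation p = 0.214) and 0.39 in males (SE 0.57, exact permutation p = 0.5). The interaction was 1.46 (SE 0.94, limma-voom p = 0.137, n = 20). The 95% interval of the interaction, from -0.50 to 3.42, covers 0. Without nPM females 1 the interaction was 2.14 (limma-voom p = 0.0326, n = 19, adjusted p = 0.998). The difference in females was then -1.75, past an unadjusted p of 0.05 (limma-voom adjusted p = 0.9999), and without control females 3 it was -0.64. In males it was 0.16 (without control males 3) to 0.76 (without control males 2).

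None of the alpha-1 receptors passed the test with exposure. For Adra1a, which had the steadiest level, the log2 difference was -0.15 in both sexes (SE 0.11, limma-voom p = 0.167, n = 10 per group), with a 95% interval from 0.772-fold to 1.05-fold. Its mean was 1.63 ± 0.257 RPKM in nPM against 1.91 ± 0.271 in control females, and 1.56 ± 0.308 in nPM against 1.67 ± 0.343 in control males (SD, n = 5). In females the difference was -0.23 (SE 0.13, exact permutation p = 0.159), and without nPM females 5 it was -0.31, past an unadjusted p of 0.05 in limma-voom (adjusted p = 0.9999). That was 1 of 10 fits with a sample left out, over which the difference was -0.31 to -0.14. The largest limma-voom p of these fits was 0.303, without nPM females 1. For Adra1b the difference was -0.13 (SE 0.26, n = 10 per group, p = 0.620) and the interval ran from 0.630-fold to 1.33-fold. For Adra1d, the most abundant receptor, it was -0.0088 (SE 0.16, n = 10 per group, p = 0.957), with an interval from 0.788-fold to 1.25-fold. Adra1d ranged from 4.87 to 7.64 RPKM in control females and from 2.91 to 8.74 RPKM in nPM females, where the lowest value was that of nPM females 4.

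Adrb1, the receptor that drives cyclic AMP, was at 1.66, 3.10, 2.22, 2.77 and 2.72 RPKM in nPM females, against 2.79, 3.21, 1.49, 2.09 and 1.63 RPKM in control females. It was at 1.90, 1.80, 1.84, 2.65 and 2.79 RPKM in nPM males, against 2.44, 2.18, 2.79, 2.29 and 2.29 RPKM in control males. The groups overlapped in both sexes, although 3 of 5 nPM males lay below every control male. The log2 difference was -0.00013 in both sexes (SE 0.14, limma-voom p = 0.999, n = 10 per group), with a 95% interval from 0.813-fold to 1.23-fold. The neocortical markers were lower with nPM for 10 of 10 genes in males and 8 of 10 in females, with median log2 differences of -0.29 and -0.043 and 0 genes past the threshold of p under 0.005. The median summed neocortical level was 301 CPM in nPM and 363 in control males, but 364 in nPM and 329 in control females. This sum, which Adrb1 itself followed closely (r = 0.95), was made a covariate after the data were seen. The difference in Adrb1 in both sexes was then 0.18 (limma-voom p = 0.02, n = 20, adjusted p = 0.9998). Of 10 alternative settings this was the 1 with an unadjusted p under 0.05. The part of neocortical tissue in the level of Adrb1 was not tested.

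**Figure D3:**
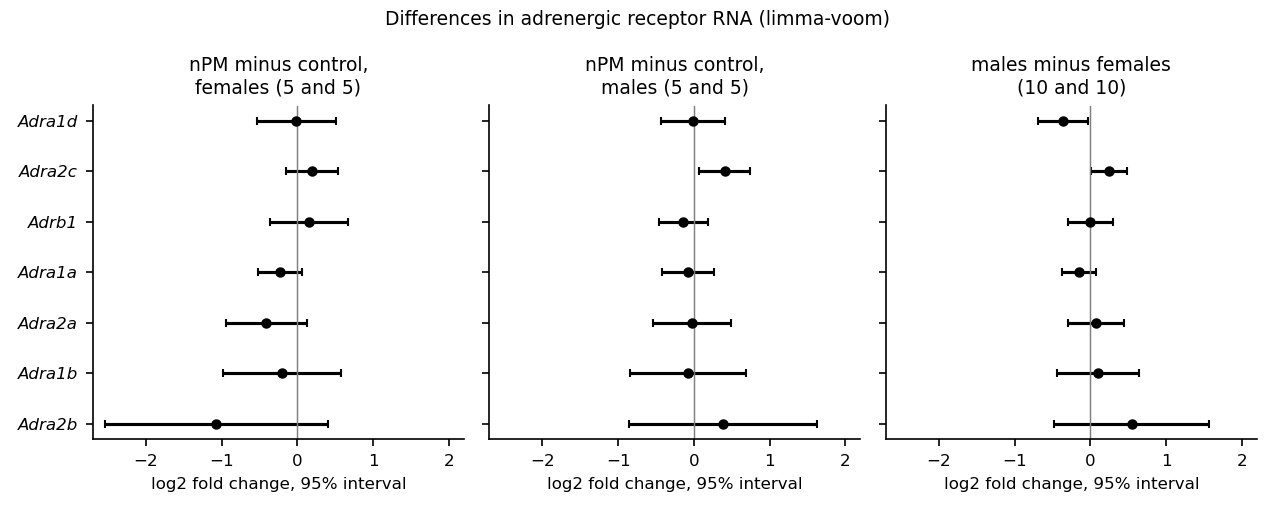
Log2 fold change of each receptor gene with its 95% interval from limma-voom, for nPM minus control in females and in males (5 against 5) and for males minus females (10 against 10). Adra2c in males (0.41) and between the sexes (0.25) and Adra1d between the sexes (-0.36) have intervals that leave out 0, and the interval of Adra2b in females runs from -2.54 to 0.40.

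Males and females differed for many genes, and no receptor was among those called by limma-voom. At p under 0.005, 0 of 7 receptor genes were called against 31.1% of tested genes, by each of the 3 tools. At an adjusted p under 0.05 limma-voom called 0 of 7 against 40.4%. At an unadjusted p under 0.05, 2 of 7 were past it against 48.4% of tested genes, and edgeR and DESeq2 gave the same 2 genes, Adra1d and Adra2c. The males were about a week older. Their choroid plexus markers were higher for 10 of 10 genes (median log2 difference 1.25, 0 past p under 0.005), beside 52.2% of all tested genes. The summed level of this list varied widely in both sexes, from 41.3 to 7687 CPM in males and from 50.1 to 8723 CPM in females. Markers of microglia and oligodendrocytes were higher for 10 of 10 each (0.28 for both, 4 and 2 past p under 0.005). Endothelial markers were lower for 9 of 10 genes (median -0.22, 5 past p under 0.005). Those of hippocampal neurons were lower for 7 of 10 (median -0.20), but the 1 gene past p under 0.005 was higher in males. The part of age, of the EdU injections and of these tissues in the values below was not tested.

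Adra1d had a lower mean level in males, short of the threshold. Its level in females had a lowest value of 2.91, a median of 6.75 and a highest of 8.74 RPKM, and in males 3.63, 4.45 and 7.22 RPKM (n = 10 each), so the ranges overlapped. The log2 difference was -0.36 (SE 0.16), a 0.778-fold level with a 95% interval from 0.617 to 0.981 (limma-voom p = 0.0350, n = 10 per group, adjusted p = 0.0776). DESeq2 gave -0.38 with an adjusted p of 0.0477, under 0.05, and edgeR -0.38 with an adjusted p of 0.0696. The lowest female value is that of nPM females 4, the library with the extreme GC tilt, in which Adra1d had 101 counts. Without this library the difference was -0.46 and passed both thresholds (limma-voom p = 0.00223, n = 19, adjusted p = 0.0080). With GC tilt as a covariate it was -0.48 (p = 0.00311, n = 20, adjusted p = 0.0102). In control samples alone it was -0.36 (limma-voom adjusted p = 0.137). With each sample left out in turn the difference was -0.46 to -0.30, and 7 of the 20 fits had an unadjusted p under 0.05. The largest limma-voom p of these fits was 0.0744, without nPM females 3.

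Adra2c was at 1.87, 2.51 and 3.19 RPKM in females and at 2.09, 2.80 and 4.73 RPKM in males (lowest, median and highest). The difference was 0.25 on the log2 scale (SE 0.11, limma-voom p = 0.0405, n = 10 per group, adjusted p = 0.0871). In control samples alone it was 0.13 (limma-voom adjusted p = 0.468). With each sample left out in turn the difference in Adra2c was 0.17 to 0.29, and 9 of the 20 fits had an unadjusted p under 0.05. The largest limma-voom p of these fits was 0.0873, without nPM males 1. Within the alpha-1 class, Adra1a differed by -0.15 (SE 0.11) and Adra1b by 0.10 (SE 0.26) between the sexes. Adrb1 differed by 0.0020 (SE 0.14), with an interval from 0.814-fold to 1.23-fold. The alpha-1 class made up 58.8% ± 4.88 of the summed RPKM of the 7 genes in control females and 52.5% ± 4.89 in control males, and with nPM 56.9% ± 6.11 in females and 50.1% ± 6.38 in males (SD, n = 5).

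Whether the receptors vary together from animal to animal was asked within groups, by correlating log2 CPM over the 20 samples after the group means were removed, with p from 100000 permutations within groups. Of the 21 pairs of receptors, 2 passed an adjusted p under 0.05. Adra1a and Adra1b rose and fell together (Pearson's r = 0.79, permutation p = 0.00019, adjusted p = 0.00399, Spearman's rho = 0.82, permutation p = 0.00021, adjusted p = 0.00441). Without the 2 samples farthest from the median, r was 0.81, and within the groups it was between 0.77 and 0.90. Adra1a and Adrb1 were the other pair (r = 0.61, permutation p = 0.00340, adjusted p = 0.0357), with a rho of 0.62 (permutation p = 0.00484) whose adjusted p was 0.0508 and an r of 0.58 without 2 samples.

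The same measure was taken against the summed level of 16 lists of tissue and cell type markers, 112 relations in all. Adrb1 followed the neocortical markers, a list with Tbr1, Rorb and Cux2 (r = 0.95, permutation p = 3e-05, adjusted p = 0.00336, rho = 0.93 with the same p-values). In no other relation was r as high. It was 0.93 without the 2 farthest samples and, within the groups, 0.97 and 0.82 in control females and males and 0.94 and 0.97 in nPM females and males. Adra1a also rose with the neocortical markers (r = 0.73, permutation p = 0.00035, adjusted p = 0.0149, rho = 0.72 with permutation p = 0.00056, and 0.66 without 2 samples). For Adra1b the value was 0.69 (permutation p = 0.00493, adjusted p = 0.0920, rho = 0.62 with permutation p = 0.0113). The part of the amount of neocortex in a sample was not tested apart from these values.

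Adra1b was lower in samples with more of the markers of hippocampal pyramidal and granule neurons (r = -0.79, permutation p = 0.00040, adjusted p = 0.0149, rho = -0.75 with permutation p = 0.00104). The relation was -0.74 without the 2 farthest samples. Within the groups it was -0.96 and -0.70 in control females and males, and -0.91 and -0.59 in nPM females and males. The sums were 1199 to 2009 CPM in females and 996 to 1755 CPM in males.

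Adra2b rose with the markers of neuroblasts and the subventricular zone (r = 0.68, permutation p = 0.00145, adjusted p = 0.0406), with a rho of 0.64 (permutation p = 0.00296) whose adjusted p was 0.0553 and an r of 0.69 without 2 samples. With thalamic markers r was 0.66 (permutation p = 0.00230, adjusted p = 0.0515) and rho 0.74 (permutation p = 0.00072, adjusted p = 0.0269), and r was 0.68 without 2 samples. In nPM females 10 of 10 thalamic genes and 10 of 10 of the neuroblast list had negative log2 differences, with medians of -0.27 each and 0 genes of either past p under 0.005. Dlx1 and Igfbpl1 of the neuroblast list are named in the same module as Adra2b, so that list is not independent of it. Their part in the low counts of Adra2b in nPM females was not tested. Adra2a, Adra2c and Adra1d had no relation past an adjusted p of 0.05. For Adra2c, r ran from -0.34 with noradrenergic neuron markers to 0.51 with microglia, which was 0.19 without nPM females 3 and 4. For Adra2a it ran from -0.46 with hippocampal neurons to 0.59 with neuroblasts. For Adra1d it ran from -0.56 with neuroblasts to 0.65 with microglia, and the latter was 0.23 without the 2 farthest samples, nPM females 3 and 4.

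**Figure D4:**
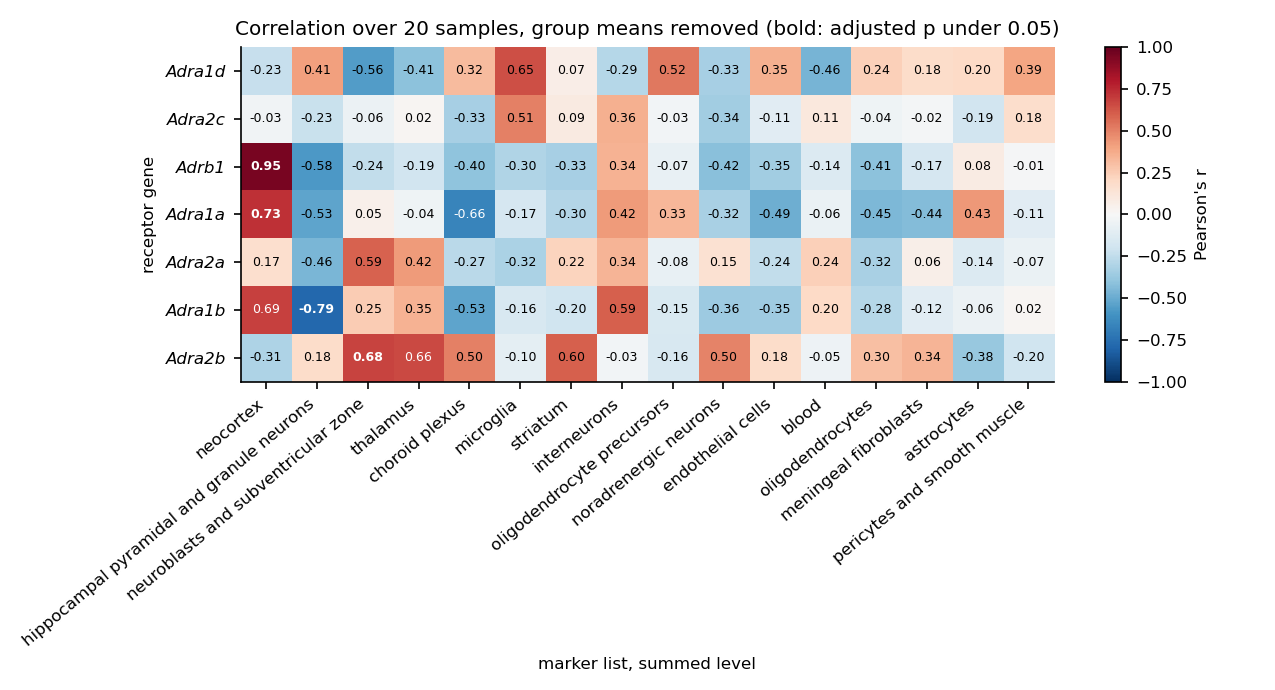
Pearson's r over 20 samples between each receptor gene (rows) and the summed level of each of 16 marker lists (columns), on log2 CPM with group means removed. Bold values have an adjusted p under 0.05, the highest being 0.95 for Adrb1 with neocortex and the lowest -0.79 for Adra1b with hippocampal neurons.

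**Figure D5:**
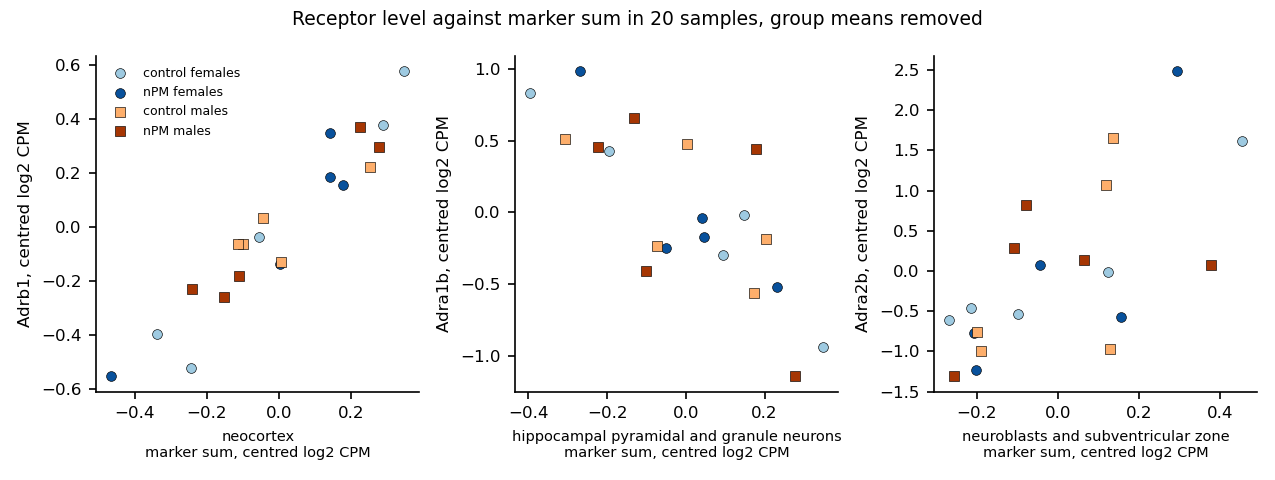
Centred log2 CPM of Adrb1, Adra1b and Adra2b against the centred log2 summed level of the neocortical, hippocampal neuron and neuroblast markers, with 1 point per sample and symbols for the 4 groups. Adrb1 rises along a narrow band (r = 0.95), Adra1b falls (r = -0.79), and Adra2b rises with a wide scatter (r = 0.68).

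The GC tilt and the total count of the libraries were set against the receptors as well, 14 relations chosen after the data were seen. None passed an adjusted p of 0.05. For Adra1d, r with GC tilt was 0.62 (permutation p = 0.0629, adjusted p = 0.440, rho = 0.40 with permutation p = 0.0867) and 0.23 without nPM females 4 and control males 1. For Adra2c it was 0.49 (permutation p = 0.0373, adjusted p = 0.440, rho = 0.40 with permutation p = 0.0679) and 0.39 without them.

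The genes most like each receptor across the 20 samples were listed by Pearson's r of the same centred values, as a description with no test. For Adrb1 they included Tbc1d30 (0.92), Ovol2 (0.92) and Osbpl1a (0.92). For Adra1a they were Tac2 (0.88), which encodes the neuropeptide neurokinin B, Dusp22 (0.88), 2900064F13Rik (0.86), Adgra1 (0.83) and Atp8a2 (0.83). For Adra1b they were Dusp26 (0.90), Cit (0.89), Nrg1 (0.87), the growth factor neuregulin 1, Plxdc1 (0.87) and Rgs6 (0.87). For Adra1d they were Cebpa (0.91), Selplg (0.90), Mmp17 (0.90), Slc25a22 (0.89) and Trim46 (0.89). For Adra2a they were Col23a1 (0.85), Hs3st2 (0.81), Camk2d (0.78), Gm3752 (0.78) and Gm9157 (0.77). For Adra2b they were Gm28703 (0.87), Pld5 (0.87), Zic1 (0.87), a transcription factor in the thalamic list, Ano1 (0.86) and Grk5 (0.85), a kinase that desensitizes G protein-coupled receptors. For Adra2c they were Pbx2 (0.86), Insyn1 (0.83), Fam32a (0.83), Kcne1l (0.80) and Maged2 (0.80). The lists of the 7 receptors shared no gene.

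Genes of noradrenaline synthesis, transport and breakdown ranged from barely counted to well measured. Th, the tyrosine hydroxylase that makes the precursor of noradrenaline, was at 0.163 RPKM ± 0.0980 (SD, n = 20), and Dbh, the enzyme of the last step, at 0.124 ± 0.0878, with 1 to 46 counts. Slc6a2, the noradrenaline transporter of the terminal membrane, had 0 to 3 counts and was at 0 in 8 of 20 samples, and Pnmt, which makes adrenaline, had 0 to 5 counts, so neither was tested. Ddc, the decarboxylase that noradrenaline shares with dopamine and serotonin synthesis, was at 1.95 ± 0.448 RPKM, and Slc18a2, the vesicular monoamine transporter, at 1.06 ± 0.447. Of the carriers that take up monoamines with low affinity, Slc29a4 was at 4.67 ± 2.68 RPKM and Slc22a3 at 0.201 ± 0.0770. The monoamine oxidases, enzymes of breakdown, were at higher levels than these, with Maoa at 9.86 ± 1.51 RPKM and Maob at 8.62 ± 2.12.

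Downstream of the receptors, 6 lists with 63 genes were examined, of which 61 were tested: the G protein subunits, adenylyl cyclases, phospholipase C beta with protein kinase C, protein kinase A with phosphodiesterase 4, receptor desensitization, and the handling of noradrenaline above. None of the 61 passed p under 0.005 with exposure or for the interaction. At an unadjusted p under 0.05 in limma-voom the counts of these 61 were 1 in both sexes (background 2.1%), 1 in males (4.28%), 4 in females (2%) and 3 for the interaction (3.79%). Ddc had the smallest p of these, with a log2 difference of -0.54 in nPM females (SE 0.17) and an interaction of 0.68 (SE 0.24, limma-voom p = 0.00888, n = 20). The others were Rgs14 in both sexes, Adcy5 in males, Plcb4, Grk5 and Arrb1 in females, and Plcb4 and Grk5 for the interaction, named after their values were seen. The median log2 difference of the 6 lists in both sexes lay between -0.060 and 0.078, against -0.0059 over all tested genes.

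Between the sexes 16 of the 61 pathway genes passed p under 0.005, 8 higher and 8 lower in males, beside the background of 31.1%. Among the G proteins, Gnai1 (log2 difference 0.42, SE 0.073) and Gnai3 (0.34, SE 0.062), which encode Gi subunits, were higher in males. Gnao1 (-0.26, SE 0.064), which encodes the Go subunit, was lower, and alpha-2 receptors couple to both Gi and Go. Of the adenylyl cyclases, which make cyclic AMP, Adcy9 (-0.36, SE 0.077) and Adcy4 (-0.72, SE 0.20) were lower. Among the protein kinase A subunits, Prkacb (0.42, SE 0.11), Prkar1a (0.27, SE 0.056) and Prkar2b (0.46, SE 0.12) were higher in males. Of the phosphodiesterases that break cyclic AMP down, Pde4a (-0.52, SE 0.079), Pde4c (-1.07, SE 0.21) and Pde4d (-0.26, SE 0.078) were lower and Pde4b (0.20, SE 0.052) was higher. Rgs2 (0.42, SE 0.093), which shortens Gq signals, and Maoa (0.30, SE 0.075) were higher, and the receptor kinase Grk4 (-0.32, SE 0.10) was lower. The limma-voom adjusted p-values of the genes named were 4.22e-05 for Pde4a to 0.0156 for Grk4.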

How the data were processed

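RNA of 20 mouse hippocampi was sequenced after depletion of ribosomal RNA. The authors trimmed adapters where needed, mapped them with HISAT2 (mm10) and, for Gencode M11 genes, ran featureCounts 1.5.0-p3. They deposited whole-number counts without normalization, gene lengths (whole numbers of bases, other than counts) and a mean RPKM per gene, which the counts here gave to within 4.37e-11. A strand setting is not given in the sources used here. Sex, exposure and replicate number came from the labels.

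Low genes were removed with filterByExpr, given the 4 groups, at its count minimum of 10 and total minimum of 15. TMM factors (edgeR 4.0.16, 0.958 to 1.06) and limma-voom (limma 3.58.1, R 4.3.3, offset 0.5) were computed from the counts, with sex or exposure as covariate where both were pooled. The call was p under 0.005, with Benjamini-Hochberg adjustment over 19797 genes beside it. The scripts were tested on simulated data. Alternatives were edgeR's quasi-likelihood test, DESeq2 1.42.0 and those given in the closing section. CPM and RPKM values used the counts on tested genes times the TMM factor as library size, and RPKM values used deposited lengths. Replicate numbers did not pair the samples. The rule for naming genes took all receptors, all genes of noradrenaline handling, pathway genes past the threshold (otherwise the one with the smallest p) and the 5 genes most like each receptor. Some genes that this rule names are not reported here. The members and lists were chosen with earlier results of these data known. Adrbk1 and Adrbk2 were matched to Grk2 and Grk3 as RefSeq synonyms. Python 3.11.15, numpy 2.4.6, scipy 1.17.1, pandas 2.3.3 and matplotlib 3.10.9 were used. Alternatives with GC tilt, the neocortical sum, 2 libraries left out and another length, and the relations with GC tilt and depth, were added after seeing the data.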

Additional observations from a re-analysis of the deposited data

Results flagged for a closer look

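In the 28 sets of 5 samples formed by 7 receptors and 4 groups, 2 had a sample far from the rest, where chance gives about 1 in 20. Adra1d in control males 5 was at 7.22 RPKM (491 counts), the highest of its group, with a gap to the next sample of 0.886 of the group's range. Adra2b in control females 3 was at 0.334 RPKM (43 counts), with a gap of 0.729 of the range. Both exceed the critical value of 0.71 for 5 samples.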

How the results depend on the processing

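Over 924 refits of single receptors, 804 kept direction and side of the threshold, 115 turned sign and 5 newly passed p under 0.005. Of the 115, 114 belong to differences with p over 0.3 as reported. The count of receptors called went from 0 to 1 in both sexes (Adra2c) and between the sexes (Adra1d) without nPM females 4, and when nPM females 4 and control males 1 were left out, and between the sexes with GC tilt as a covariate, and was 0 in every other setting run. With samples left out in turn it was 0 to 1 in these 2 comparisons. Counts of all genes called moved as follows. With exposure in both sexes 28 became 43 in DESeq2, 71 without a filter on low counts, 53 with sample quality weights, 44 with GC tilt as a covariate and 18 to 46 with samples left out. In males 41 became 113 in DESeq2, 132 unfiltered, 66 with GC tilt, 82 with the neocortical sum and 22 to 78 with samples left out. In females 17 became 28 in edgeR, 55 in DESeq2, 89 unfiltered, 41 with weights, 51 with GC tilt, 29 with the neocortical sum, 45 without nPM females 4 and control males 1 and 9 to 45 with samples left out. For the interaction 43 became 66 in edgeR, 89 in DESeq2, 149 unfiltered, 83 with GC tilt, 71 with the neocortical sum, 66 without nPM females 4 and control males 1, and 24 to 84 with samples left out. Between the sexes 6147 became 3760 in control samples only. Single libraries moved these counts by over 1.5 times. In both sexes they were control females 1 (18), control females 5 (45) and nPM females 4 (46), in males nPM males 4 (78) and nPM males 5 (22), in females control females 5 (29), nPM females 1 (33), nPM females 4 (45) and nPM females 5 (9), and for the interaction control females 1 (84) and control females 3 (24). The causes were not tested.

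Signs turned for small log2 differences. With exposure in both sexes, Adrb1 was 0.013 in edgeR, 0.011 in DESeq2, 0.00025 with RLE size factors, 0.0090 unfiltered, 0.0098 with age, 0.012 with weights, 0.0015 with GC tilt and 0.18 with the neocortical sum, and Adra1d was 0.013 in edgeR and DESeq2, 0.10 with weights, 0.011 with GC tilt and 0.083 without nPM females 4 and control males 1. Adra1b was 0.11 with the neocortical sum. With samples left out, Adra1b was -0.24 to 0.021, Adra1d -0.072 to 0.094, Adra2b -0.38 to 0.024 and Adrb1 -0.069 to 0.059. In males, the neocortical sum gave 0.14 for Adra1a, 0.32 for Adra1b, 0.22 for Adra2a and 0.089 for Adrb1, weights gave 0.0044 for Adra1b and 0.088 for Adra2a, and leaving out nPM females 4 and control males 1 gave 0.046 and 0.079 for the same genes. Adra1d in males was 0.0087 in edgeR, 0.0070 in DESeq2 and 0.0024 unfiltered. With samples left out, males gave -0.18 to 0.015 for Adra1a, -0.25 to 0.22 for Adra1b, -0.12 to 0.15 for Adra1d and -0.19 to 0.15 for Adra2a. In females, Adra1d was 0.018 in edgeR, 0.028 in DESeq2, 0.17 with weights, 0.20 without nPM females 4 and control males 1 and -0.14 to 0.20 with samples left out, and Adra1b -0.47 to 0.016. The interaction of Adra1d was -0.0093 in edgeR, -0.0082 in DESeq2, -0.18 with weights, -0.050 with the neocortical sum, -0.24 without nPM females 4 and control males 1 and -0.21 to 0.16 with samples left out, and that of Adra1b was -0.091 to 0.41. Between the sexes, Adrb1 was -0.040 in edgeR and DESeq2, -0.00035 with RLE size factors, -0.11 with weights, -0.078 with the neocortical sum and -0.072 to 0.053 with samples left out. Adra1b was -0.052 with weights, Adra2a -0.11 in controls only, -0.0075 without nPM females 4 and control males 1 and -0.032 to 0.17 with samples left out, and Adra2b -0.12 in controls only.

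Same-numbered samples of the 4 groups deviated together with a median correlation of -0.0079 (range -0.42 to 0.28), so the replicate numbers do not pair the samples. With a replicate block, 0 of 7 receptors were called in each comparison and 21, 35, 21, 56 and 5834 genes in all, in both sexes, males, females, the interaction and between the sexes. The replicate block turned Adrb1 to 0.014 in both sexes and -0.019 between the sexes, and Adra1d to 0.0044 in males and 0.023 in females. The alternatives with GC tilt, the neocortical sum, both libraries left out and another gene length (3.22 RPKM for Adra1a) were chosen after seeing the data. Mean levels of the 7 receptors moved by less than 1 SD with plain total counts, the median of the samples or a sample left out. Depth limits Adra2b most, at 2 to 43 counts.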
